A study of Mus musculus with 24 samples.

Results

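The 6 genes described here, Stat2, Stat3, Stat4, Stat5a, Stat5b and Stat6, encode signal transducers and activators of transcription (STATs). They were taken by their symbols from the count tables of mouse adipose tissue, in which they made up 6 of 24421 listed gene symbols, and all 6 passed the filter on low counts in every comparison. The study sequenced total RNA of C57BL/6 mice aged 2 months, male and female, in 3 genotypes. WT mice were compared with mice carrying STAT5B-Y665F, in which tyrosine Y665 of STAT5B is a phenylalanine, and with mice carrying STAT5B-Y665H, in which it is a histidine. Each genotype and sex had 4 libraries, giving 6 groups and 24 libraries. Whether the mice carried the change on a single allele or on both, the fat depot, and whether the libraries of a group came from separate mice are not given in the sources used here, so p-values measure only the spread between these libraries.

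STAT proteins wait in the cytoplasm until a cytokine or hormone binds its receptor. Janus kinases (JAKs) bound to the receptor then phosphorylate a tyrosine near the STAT carboxyl terminus, and the phosphorylated proteins pair through their SH2 domains, enter the nucleus and bind DNA, most of them at palindromes of the form TTCNNNGAA. STAT5A and STAT5B serve growth hormone, prolactin and the IL-2 family of cytokines and take part in fat cell formation and lipolysis, STAT3 serves leptin and the IL-6 family, STAT6 serves IL-4 and IL-13 in macrophages and other cells, STAT4 serves IL-12 in T and NK cells, and STAT2 works with IRF9 downstream of type I interferon.

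The changed codon is shown because it defines the mutant groups, and the matching stretch of Stat5a because reads of these similar genes can be hard to assign. In the mouse reference (GRCm38, GENCODE M21 transcripts), the changed codon of Stat5b is TAC, a tyrosine codon, at chr11:100787291-100787293 on the minus strand, in exon 16 of 19. The lines give codons 655 to 675 of both genes, 63 bases each, with the changed codon in capitals. Stat5b lies at chr11:100787261-100787323 on the minus strand and Stat5a at chr11:100881086-100881148 on the plus strand, in exon 17 of 20.
Stat5b: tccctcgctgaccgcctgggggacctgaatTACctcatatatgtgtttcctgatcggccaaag
Stat5a: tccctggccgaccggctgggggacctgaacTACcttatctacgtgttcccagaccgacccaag
The tyrosine is thus encoded in both genes, and 12 of the 63 bases differ. Over 2343 aligned coding bases the genes were 90.7% identical, with a longest identical run of 324 bases. Of all 50-base windows of the transcripts, 11.8% of those of Stat5b and 15.8% of those of Stat5a also occur in the other gene, so part of their reads may have been split or dropped in counting, and how such reads were treated is not given in the sources used here.

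Upstream sequence is shown for the 3 members whose Y665H and Y665F female libraries did not overlap (Stat2, Stat4 and Stat6, below). The 250 bases before each RefSeq transcription start (GRCm38.p6) were searched on both strands for TTCNNNGAA, for TTCNNNNGAA, the wider spacing favoured by STAT6, and for GAAANNGAAA, the core of the interferon-stimulated response element that STAT2 binds with IRF9. Capitals mark the matches. For Stat4 only the window with a match is shown, and that of the first RefSeq start (chr1:51986898-51987147) had none.
Stat2, chr10:128270248-128270497, plus strand: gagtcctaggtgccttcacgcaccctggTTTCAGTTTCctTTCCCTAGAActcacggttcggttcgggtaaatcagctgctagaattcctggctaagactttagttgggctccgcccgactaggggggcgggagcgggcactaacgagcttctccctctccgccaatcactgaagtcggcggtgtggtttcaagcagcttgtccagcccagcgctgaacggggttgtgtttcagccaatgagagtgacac
Stat4, second RefSeq start, chr1:52007990-52008239, plus strand: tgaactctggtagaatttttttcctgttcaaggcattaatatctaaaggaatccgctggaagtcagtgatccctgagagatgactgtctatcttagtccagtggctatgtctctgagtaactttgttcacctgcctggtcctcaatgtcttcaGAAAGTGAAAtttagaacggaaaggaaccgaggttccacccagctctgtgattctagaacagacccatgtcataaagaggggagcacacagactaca
Stat6, chr10:127642736-127642985, plus strand: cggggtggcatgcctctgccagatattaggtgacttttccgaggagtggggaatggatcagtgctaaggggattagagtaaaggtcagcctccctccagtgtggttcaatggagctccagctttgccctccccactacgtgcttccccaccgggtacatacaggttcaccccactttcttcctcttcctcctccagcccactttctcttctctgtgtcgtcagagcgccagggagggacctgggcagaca
The Stat2 window held GAAANNGAAA on the minus strand at -222 and, next to it, TTCNNNNGAA at -210, and the window of the second Stat4 start held GAAANNGAAA at -97. None of the 3 motifs occurred in the other 7 of the 9 member windows, that of Stat6 included. Among 32851 RefSeq promoters, TTCNNNGAA was present in 7.02%, TTCNNNNGAA in 5.85% and GAAANNGAAA in 2.98% of windows of this length. A match is a description of the letters and not a site.

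The depth was 20.98 to 41.34 M gene counts per library (median 34.58), with M for 1000000. Levels are in CPM, the share of a gene in 1000000 counts, scaled by the TMM method of edgeR over all 24 libraries. The tissue label was checked with 10 adipocyte genes, all above 1 CPM in every group. Adipoq, the adipokine adiponectin, was at 471.5 to 2509 CPM and Plin1, the lipid droplet coat protein perilipin 1, at 719.8 to 3162 CPM. WT male libraries also held transcripts of other tissues: the summed level of 7 epididymis genes ran from 1.25 to 12352 CPM in WT males, 0.523 to 870.1 in Y665F males and 1.99 to 1532 in Y665H males, against at most 2.02 CPM in any female library. WT male 4 further had 1143 CPM summed over 12 male germ cell genes, a list chosen after the data were seen, with Prm2, a sperm protamine, at 200.5 CPM. By library, the epididymis genes stood at 1.25 CPM in WT male 1, 12352 in WT male 2, 3049 in WT male 3 and 1063 in WT male 4, and 10 epithelial genes at 93.9, 1445, 820.3 and 374.9 CPM in the same order. These values belong to every contrast with WT males below, and those of the mutant males also to Y665H against Y665F males. Their part in the levels of the members was not tested. Without WT male 4, no member was called in the contrasts with WT males. In fits of each contrast alone, the members other than Stat4 then kept the sign of their difference. A fit of the remaining 23 libraries turned the sign of the small Stat5a difference in Y665F against WT males.

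Per kilobase of exon, Stat6 was the most and Stat4 the least abundant member in all 24 libraries. The median level was 43.0 CPM per kb for Stat6, 27.8 for Stat3, 21.4 for Stat5a, 18.9 for Stat5b, 13.2 for Stat2 and 0.416 for Stat4. Neighbours in this order were not all separated: Stat3 was above Stat5a in 20 of 24 libraries and Stat5a above Stat5b in 18 of 24, whereas Stat6 was above Stat3 and Stat3 above Stat5b in all 24. Stat2 was below Stat5b in 23 of 24 libraries. The highest library exceeded the lowest 1.53-fold for Stat3, 1.62-fold for Stat2, 1.70-fold for Stat5b, 1.96-fold for Stat6, 2.53-fold for Stat5a and 50.6-fold for Stat4. Lengths are those of GENCODE M21 exons, and the annotation used for counting is not given in the sources used here.

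**Figure D1:**
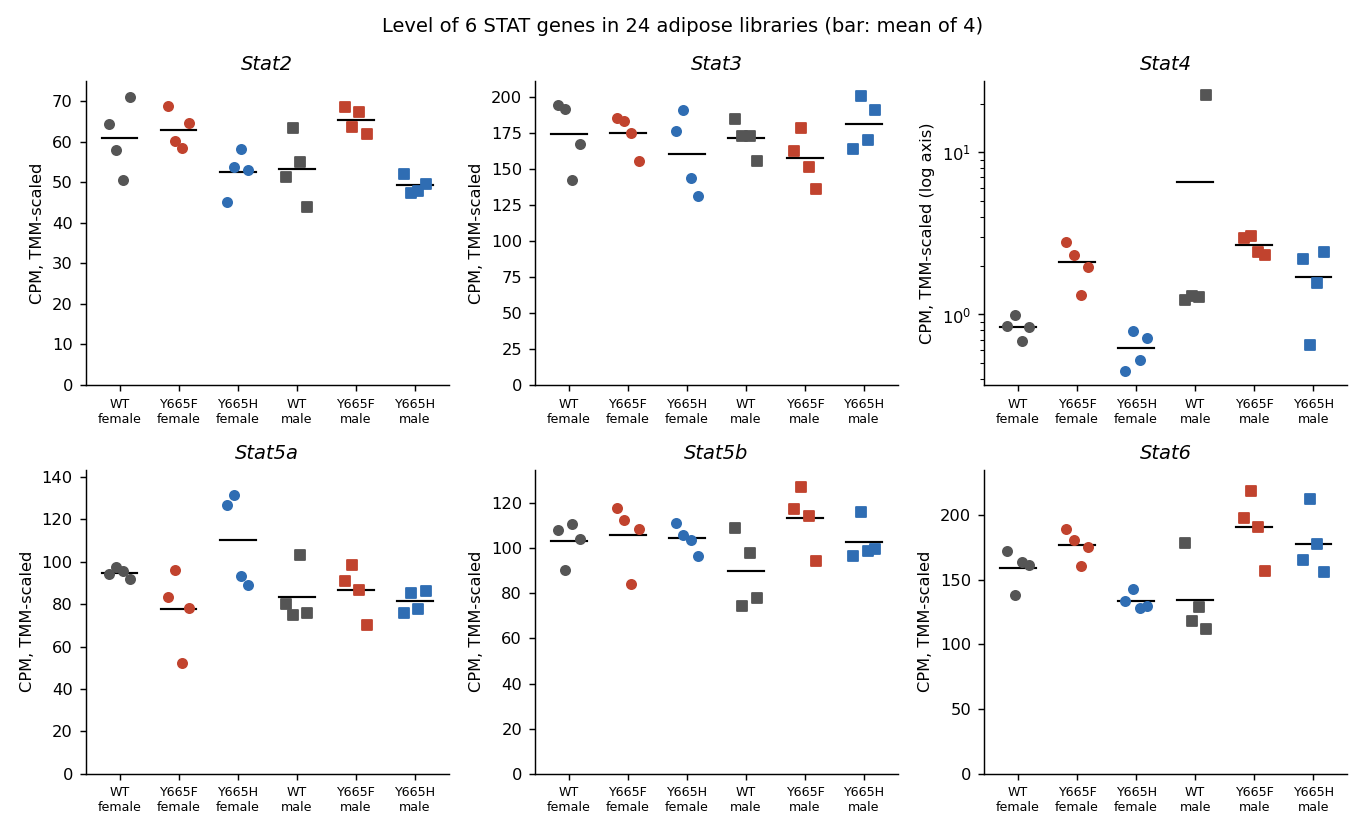
Level of each STAT gene in every library, in TMM-scaled CPM (a linear axis from 0, except a log axis for Stat4), with groups on the horizontal axis, circles for female and squares for male libraries, and a bar at the mean of 4. Stat4 differs most between groups, and WT male 4 stands at 22.6 CPM, far above every other library.

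A gene is termed called when its adjusted p is under 0.05 (edgeR quasi-likelihood F test with Benjamini-Hochberg adjustment over all genes tested, as for every adjusted p below). In Y665F against WT females, Stat4 was higher and the other 5 members were not called, where 521 of 15642 tested genes were called (3.33%; 2.31% higher). In Y665H against Y665F females, Stat4 and Stat6 were lower, where 2689 of 15493 genes were called (17.4%; 8.59% lower). In Y665H against Y665F males, Stat2 was lower, where 164 of 15986 genes were called (1.03%; 0.901% lower). No member was called in Y665H against WT females, where 516 of 15469 genes were called (3.34%), or in WT males against WT females, where 2079 of 15865 were (13.1%). No gene at all was called in Y665F against WT males among 16240 (0%) or in Y665H against WT males among 16406 (0%), where the unadjusted p was under 0.05 for 2772 and 1874 genes. Contrasts that share a group share its libraries, so they are not independent of each other.

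**Figure D2:**
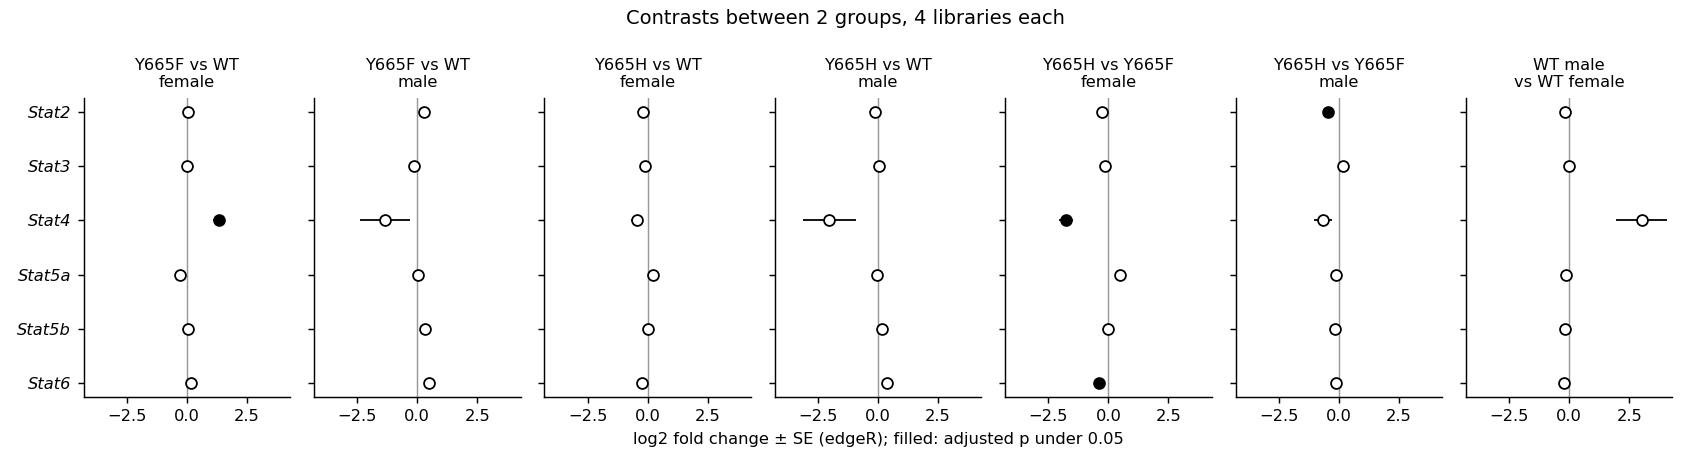
Log2 fold change of each STAT gene (points) with its standard error (lines) in 7 contrasts between 2 groups of 4 libraries, filled where the edgeR adjusted p is under 0.05. Filled points are Stat4 in Y665F against WT females, Stat4 and Stat6 in Y665H against Y665F females and Stat2 in Y665H against Y665F males, and the wide lines of Stat4 are those of the contrasts with WT males.

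Stat5b, the gene that carries the mutations (GRCm38 chr11:100780731-100850724, minus strand), was present in all 6 groups, at group means of 89.9 to 113.3 CPM, and was not called in any contrast. It was at 108, 90.4, 111 and 104 CPM in WT females, 118, 112, 84.2 and 108 in Y665F females, and 111, 106, 104 and 96.5 in Y665H females. In males it was at 109, 74.6, 97.7 and 78.2 CPM in WT, 118, 127, 114 and 94.5 in Y665F, and 96.7, 116, 98.8 and 99.5 in Y665H. The groups overlapped in every contrast. A point mutation leaves the transcript countable, so these levels do not test the genotype labels. The largest difference was between Y665F and WT males, 113.3 ± 13.7 against 89.9 ± 16.3 CPM (SD, n = 4), or 0.33 on the log2 scale with an SE of 0.14 and an edgeR adjusted p of 0.288. In females the log2 fold change against WT was 0.04 (SE 0.12) for Y665F and 0.01 (SE 0.08) for Y665H, with edgeR adjusted p of 0.844 and 0.932.

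Stat5a, the close relative of Stat5b on the same chromosome (GRCm38 chr11:100859351-100885169, plus strand, 8626 bases from Stat5b), was spread more widely among mutant females than among WT females. It was at 94.2, 97.7, 95.5 and 92.0 CPM in WT females, a narrow range. In Y665F females it was at 83.2, 96.3, 52.1 and 78.4 CPM and in Y665H females at 127, 132, 93.4 and 89.0. The 52.1 CPM belongs to Y665F female 3, where 10 epithelial genes summed to 1800 CPM, against 134.2 to 357.6 in the other Y665F females. The 10 adipocyte genes summed there to 10837 CPM, against 17185 to 19213. The part of these tissues in the spread was not tested. Both mutant groups overlapped WT, and each other. Y665H exceeded Y665F females by a log2 fold change of 0.50 (SE 0.20, adjusted p = 0.126), which was not called, although fits of 24 libraries (adjusted p = 0.0373) and of 23 libraries without WT male 4 (0.0402, edgeR) put it past the threshold. In males Stat5a was at 75.0 to 103 CPM in WT, 70.0 to 98.5 in Y665F and 75.8 to 86.4 in Y665H. The log2 fold change was 0.04 for Y665F and -0.06 for Y665H against WT males (edgeR adjusted p = 0.880 and 0.779).

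The ratio of Stat5a to Stat5b counts within a library separated Y665F females from the other 2 female groups. It was 0.619 to 0.857 in Y665F, 0.862 to 1.08 in WT and 0.899 to 1.24 in Y665H females, so the highest Y665F female library lay just below the lowest WT female library. The means were 0.726 ± 0.0983, 0.925 ± 0.105 and 1.05 ± 0.167 (SD, n = 4). In males the ratio was 0.741 to 0.776 in Y665F, 0.733 to 0.868 in Y665H and 0.737 to 1.06 in WT libraries, and these ranges overlapped. The ratio needs no scaling between libraries, but reads shared by the genes enter it, and it was described without a test. How many other pairs of genes separate these groups by their ratio was not counted. The lowest ratio, 0.619, belongs to Y665F female 3, whose epithelial and adipocyte levels are given above. Stat5a also overlaps Stat3 by 72 bases at their 3′ ends on opposite strands, and the strand setting of the counting is not given in the sources used here.

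**Figure D3:**
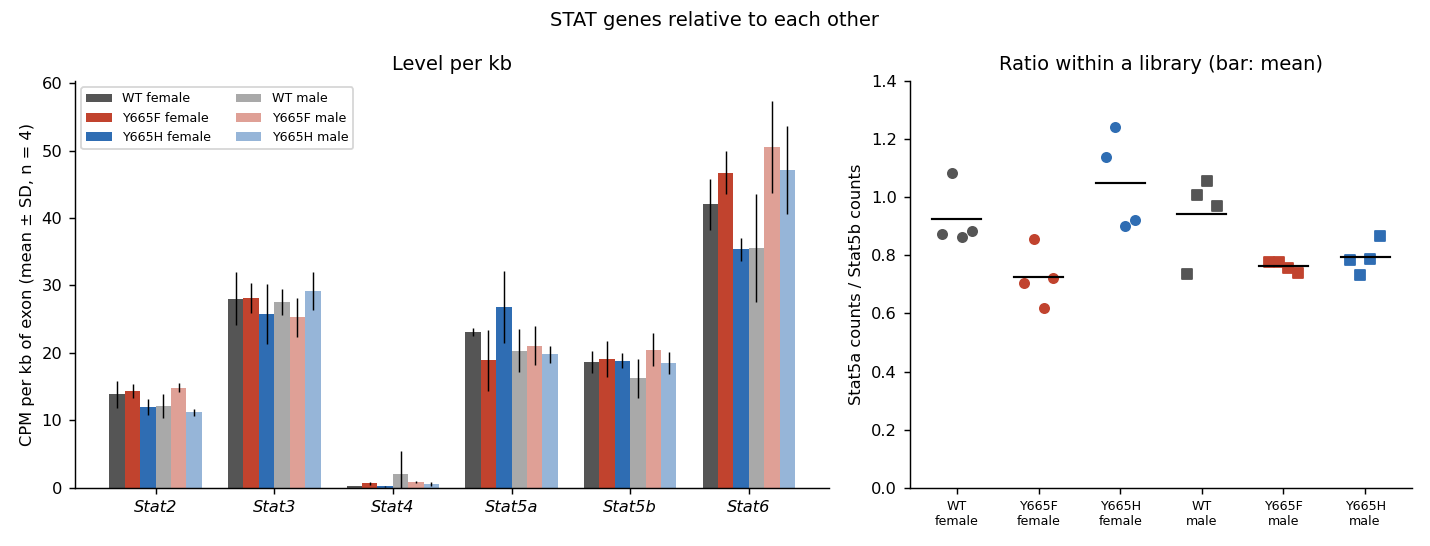
Left, mean level per kb of exon (CPM per kb, bars from 0, error bars SD of 4 libraries) of each STAT gene in the 6 groups. Right, Stat5a counts divided by Stat5b counts in each library (points, bar at the mean): the 4 Y665F female libraries lie at 0.619 to 0.857, below all WT and Y665H female libraries.

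Stat4 (GRCm38 chr1:51987148-52107189, plus strand), the STAT of IL-12 and type I interferon signalling in T and NK cells, was the member that differed most between groups. It rose in Y665F females against WT females. The WT female libraries were at 0.853, 0.988, 0.689 and 0.835 CPM and the Y665F female libraries at 2.79, 2.31, 1.32 and 1.96, and the groups did not overlap, as for 16.7% of tested genes (9.04% higher). The log2 fold change was 1.32 (SE 0.25, edgeR adjusted p = 0.0347). In Y665H females it was at 0.447, 0.786, 0.528 and 0.716 CPM, below every Y665F female library, and the log2 fold change against Y665F was -1.76 (SE 0.29, edgeR adjusted p = 0.00589). Y665H and WT females overlapped, with a log2 fold change of -0.44 (SE 0.24, adjusted p = 0.303). These levels rest on 15 to 78 counts per female library. The Y665H against Y665F call held when each of the 8 libraries was left out in turn, whereas the Y665F against WT call held only without Y665F female 3 (edgeR adjusted p = 0.00984 to 0.0991 over the 8 fits, log2 fold change 1.15 to 1.49). It was lost without any 1 of Y665F female 1, 2 or 4 or of the 4 WT female libraries. Y665F female 3 is also the library with the highest summed level of the 10 epithelial genes (1800 CPM), and their part was not tested. A fit of all 24 libraries called neither (adjusted p = 0.312 and 0.123), and the same fit without WT male 4 called both (edgeR adjusted p = 0.0294 and 0.00107).

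Transcripts of lymphocytes moved with Stat4. The summed level of 14 T and NK cell genes was 14.7 to 20.3 CPM in WT females, 36.6 to 58.2 in Y665F females and 11.2 to 38.1 in Y665H females, with none of the 14 at 0 in any of the 6 groups. Of these 14 genes, 11 were called higher in Y665F than in WT females and 9 lower in Y665H than in Y665F females, beside 3 and 7 of 8 B cell genes. Set against those genes, Stat4 stood at 41.1 to 62.2 counts per 1000 T and NK cell counts in WT females, 35.96 to 48.0 in Y665F females and 18.8 to 47.8 in Y665H females, and these ranges overlapped. The part of lymphocyte number in the Stat4 differences was not tested. In these bulk samples, fewer cells of a type and less RNA per cell cannot be told apart.

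In males, Stat4 was at 1.22, 1.31, 1.28 and 22.6 CPM in WT, 2.97, 3.03, 2.43 and 2.34 in Y665F and 2.20, 0.647, 1.56 and 2.45 in Y665H libraries. The highest value belongs to WT male 4, with 893 Stat4 counts and 1260 Stat4 counts per 1000 T and NK cell counts, against 8.72 to 48.6 in the other 3 WT males. The same library held the most germ cell transcripts, 1127 CPM over 11 germ cell genes (without Sycp3) against at most 76.0 CPM in any other library. Its 14 T and NK cell genes summed to 18.0 CPM, the lowest of the 4 WT males. With it, the log2 fold change of Stat4 was -1.36 (SE 1.04, adjusted p = 0.490) for Y665F and -2.02 (SE 1.10, edgeR adjusted p = 0.406) for Y665H against WT males. Without it, both signs turned, to 1.11 (adjusted p = 0.217) and 0.43 (edgeR adjusted p = 0.646). WT males exceeded WT females by a log2 fold change of 3.02 (SE 1.07, adjusted p = 0.0910) with all libraries and 0.61 without WT male 4. The WT male and WT female libraries did not overlap, as for 21.9% of tested genes (10.2% higher in males), also among the 3 remaining WT males. The part of germ cell transcripts in the Stat4 level of this library was not tested. DESeq2 gave Stat4 no p in the contrasts with WT males.

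**Figure D4:**
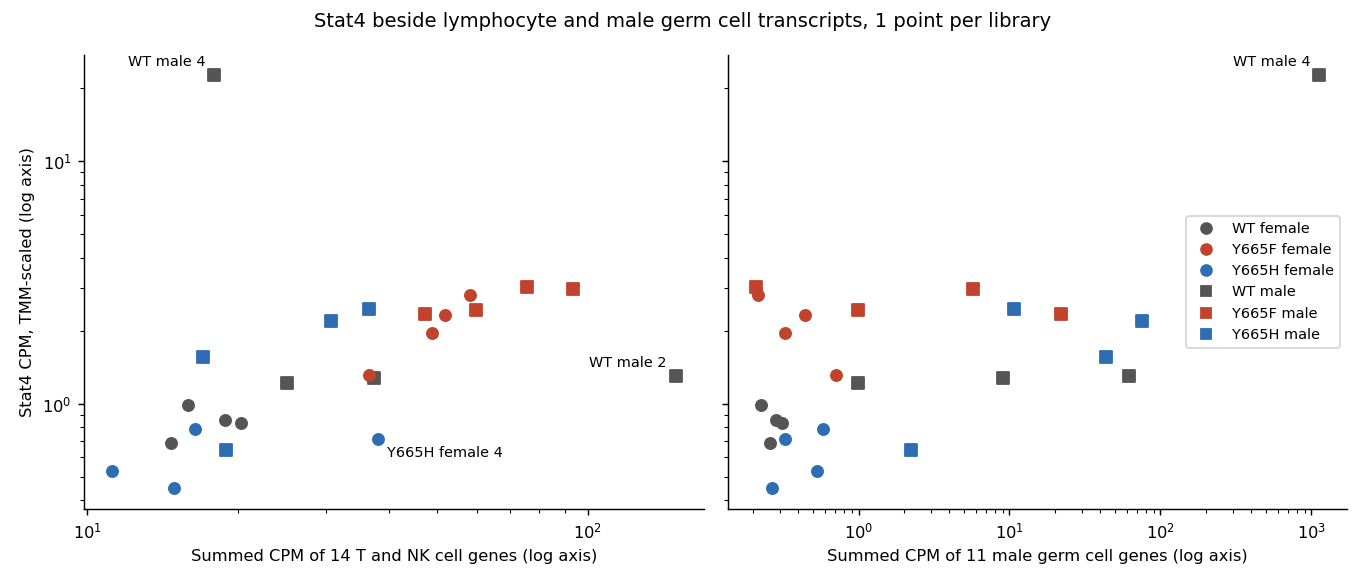
Stat4 level (TMM-scaled CPM, log axis) of each library against the summed level of 14 T and NK cell genes (left) and of 11 male germ cell genes (right), both in CPM on log axes, coloured by genotype, with circles for females and squares for males. Y665F libraries lie at 36.6 to 93.5 CPM of T and NK cell genes, WT male 2 lies at 149.7 with 108.7 of them from Klrb1c, and WT male 4 lies at 1127 CPM of germ cell genes.

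Stat6 (GRCm38 chr10:127642986-127660957, plus strand), the STAT of IL-4 and IL-13, was lower in Y665H than in Y665F females. It was at 189, 181, 161 and 175 CPM in Y665F females and at 133, 143, 128 and 130 in Y665H females, and no library overlapped. Together with Stat4 and Stat2 this made 3 members that were lower without overlap, as 11.9% of tested genes were (25.2% in either direction). The log2 fold change of Stat6 was -0.41 (SE 0.07, edgeR adjusted p = 0.00783), and the call held when each of the 8 libraries was left out (adjusted p = 0.0048 to 0.0331). WT females, at 172, 138, 163 and 161 CPM, lay between and overlapped both. The log2 fold change against WT was 0.16 (SE 0.09, adjusted p = 0.293) for Y665F and -0.25 (SE 0.09, edgeR adjusted p = 0.128) for Y665H females.

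In the same female libraries, 12 macrophage genes summed to 1327 to 2209 CPM in Y665F and 791.2 to 1158 in Y665H, and 6 of the 12 were called lower in Y665H. The 10 adipocyte genes summed to 10837 to 19213 CPM in Y665F and 24135 to 28962 in Y665H, with 1 called higher. Of 12 skeletal muscle genes, 7 were called higher in Y665H, but their sums overlapped, at 68.0 to 183.2 CPM in Y665F and 60.9 to 2129 in Y665H. The part of these cells and tissues in the Stat6 difference was not tested. Stat6 overlaps Nab2 on the opposite strand, and without a stated strand setting their reads cannot be told apart.

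Male Stat6 followed another order. It was at 179, 118, 129 and 112 CPM in WT males, 197, 219, 190.3 and 157 in Y665F males and 166, 213, 177 and 156 in Y665H males, so that only WT male 1 of the WT libraries reached the mutant range. This is also the WT male library with the lowest level of epididymis genes (1.25 CPM, against 1063 to 12352 in the other 3) and of epithelial genes (93.9 against 374.9 to 1445 CPM), and their part was not tested. Against WT males the log2 fold change was 0.50 (SE 0.16, adjusted p = 0.240) for Y665F and 0.38 (SE 0.17, edgeR adjusted p = 0.402) for Y665H, and neither was called. Without WT male 1 the Y665F value was 0.66 (edgeR adjusted p = 0.0473). The fit of all 24 libraries also called it (adjusted p = 0.0180), and that of 23 libraries without WT male 4 did not (edgeR adjusted p = 0.0562). The Y665H effect differed between males and females by 0.63 on the log2 scale (SE 0.19, adjusted p = 0.158), which was not called, where 2 of 16827 genes were (0.0119%). DESeq2 called it (adjusted p = 0.0391), as did the edgeR fit without WT male 1 (0.82, adjusted p = 0.00734). For Y665F, no gene of 16732 showed a called difference between the sexes (0%, 3645 at an unadjusted p under 0.05), and that of Stat6 was 0.34 (SE 0.19, edgeR adjusted p = 0.314).

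Stat2 (GRCm38 chr10:128270559-128292849, plus strand), which works with IRF9 in interferon signalling, was lower in Y665H than in Y665F males. It was at 68.5, 63.7, 67.2 and 61.8 CPM in Y665F males and at 52.1, 47.4, 47.7 and 49.6 in Y665H males, and the groups did not overlap, as for 12.3% of tested genes (6.44% lower). The log2 fold change was -0.44 (SE 0.07, edgeR adjusted p = 0.0314). The call held without Y665F male 4 and was lost without any 1 of the other 7 libraries (edgeR adjusted p = 0.0607 to 0.153), although the fold change stayed at -0.47 to -0.40. Scaling by library totals gave an adjusted p of 0.0820 (edgeR), and DESeq2 called it (adjusted p = 7.78e-06). WT males, at 51.3, 63.2, 54.9 and 43.8 CPM, overlapped both mutants, with log2 fold changes of 0.29 (SE 0.11, adjusted p = 0.263) for Y665F and -0.14 (SE 0.11, edgeR adjusted p = 0.510) for Y665H. The T and NK cell genes, of which 4 of 14 were called lower, summed to 47.4 to 93.5 CPM in Y665F and 17.1 to 36.5 in Y665H males. Epididymis genes summed to 0.523 to 870.1 CPM in Y665F and 1.99 to 1532 in Y665H males, and male germ cell genes to 11.9 to 29.0 and 17.5 to 92.1. The part of these cells and tissues was not tested.

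Stat2 was not called in the same contrast of females. It was at 68.8, 60.1, 58.4 and 64.5 CPM in Y665F and 45.1, 53.8, 58.2 and 53.1 in Y665H females, which did not overlap by a margin between 58.2 and 58.4 CPM. The log2 fold change was -0.27 (SE 0.09, adjusted p = 0.0791). With library totals in place of TMM it was -0.41 (edgeR adjusted p = 0.0318), a scaling that moved the median of all genes in this contrast from -0.03 to -0.18 and under which the male value was -0.38. Whether the difference varied between the sexes was not tested. WT females were at 50.4 to 70.9 CPM and overlapped both.

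Stat3 (GRCm38 chr11:100885098-100939540, minus strand), the STAT of leptin and the IL-6 family, was not called in any of the 7 contrasts or the 2 interactions. Its median was 179.9 CPM in WT females (142.5 to 195), 179 in Y665F females (156 to 185) and 160.1 in Y665H females (131 to 191). In males it was 173 in WT (156 to 185), 157 in Y665F (137 to 179) and 181 in Y665H (164 to 201). All groups overlapped. The contrast with the smallest p, Y665H against Y665F males, differed by 0.18 in log2 level, with an SE of 0.10 and an edgeR adjusted p of 0.385. An adjusted p above the threshold does not show that the groups were alike.

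Counted over the family, the unadjusted p was under 0.05 for 3 of 6 members in Y665F against WT males (Stat2, Stat5b and Stat6), as for 17.1% of all genes tested. It was under 0.05 for 1 member each in Y665H against WT males (Stat6, 11.4% of all genes), in Y665H against WT females (Stat6, 23.8%) and in WT males against WT females (Stat4, 33.5%), shares of members near or below those of all genes. DESeq2 called none in these contrasts, but it gave Stat4 no p in those with WT males and so could not call it there. No member was free of overlap in Y665F against WT males (8.33% of genes were), in Y665H against WT males (3.08%) or in Y665H against WT females (14.3%). Under scaling by library totals, Stat3 was lower without overlap in Y665F against WT males, Stat6 higher in Y665F against WT females and Stat3 higher in Y665H against Y665F males. This scaling moved the median log2 fold change of all genes from -0.04 to -0.096, from 0.02 to 0.154 and from -0.017 to 0.031 in the same order. The share of all genes free of overlap was not computed under it, so these separations have no background here. Stat5b and Stat6 levels went together most closely of the 15 pairs of members over the 24 libraries (Pearson r 0.753, Spearman rho 0.783, r 0.623 without the 2 libraries farthest from the Stat5b median). Taken as deviations from group means, r was 0.858 for this pair and 0.681 for Stat5a with Stat5b. These are descriptions over libraries that also share scaling and tissue composition.

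The pathway around the STATs was described with 86 genes on 12 lists of kinases, receptors, inhibitors and target genes. In Y665F against WT females 10 of 82 tested were called, all higher (12.2%, against 3.33% of all genes tested). In Y665H against Y665F females 24 of 82 were called, all lower (29.3% against 17.4%). The median log2 fold changes of the pathway genes were 0.17 and -0.29, against 0.02 and -0.03 over all genes tested. In Y665H against WT females 5 of 79 were lower (6.33% against 3.34%), and in Y665H against Y665F males 5 of 85 (5.88% against 1.03%). Between WT males and WT females 11 of 80 were called, 3 higher and 8 lower, a share near that of all genes (13.8% against 13.1%). None was called against WT in males. Called genes such as Il2rb, Tbx21 and Retnla are known from lymphocytes or macrophages, whose markers moved in the same libraries as given above, and the part of these cells was not tested.

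Of the 4 JAK kinases, Tyk2, the kinase of interferon and IL-12 receptors, fell in Y665H against Y665F in both sexes. Females had 55.0 ± 3.28 CPM in Y665F and 40.5 ± 4.08 in Y665H, with a log2 fold change of -0.45, an SE of 0.09 and an edgeR adjusted p of 0.0100. Males had 72.6 ± 3.21 and 48.1 ± 2.53 CPM, with a log2 fold change of -0.63, an SE of 0.07 and an edgeR adjusted p of 0.0126. Its changes took the same sign as those of 5 of the 6 members in each of these contrasts, all but Stat5a in females and all but Stat3 in males. Jak1, used by most cytokine receptors, was at 209.9 to 309.9 CPM as group means, Jak2, the kinase of the growth hormone receptor, at 57.4 to 71.4 and Jak3, which binds the common gamma chain, at 51.5 to 71.0, and none of the 3 was called in any contrast (edgeR adjusted p at least 0.058).

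Of 34 genes on 5 receptor lists, Irf9 included, 5 of 32 tested were called in Y665F against WT females, all higher, and 10 of 32 in Y665H against Y665F females, all lower. Il2rb, the IL-2 receptor beta chain, which signals through STAT5, was at 4.40 ± 0.898 CPM in WT, 13.0 ± 2.20 in Y665F and 2.18 ± 0.373 in Y665H females. It rose in Y665F against WT (log2 fold change 1.57) and fell in Y665H against WT (-1.01) and against Y665F (-2.58), with edgeR adjusted p of 0.0113, 0.0379 and 0.00105. Il12rb1, a chain of the IL-12 receptor upstream of STAT4, was at 0.671 ± 0.150, 1.65 ± 0.274 and 0.513 ± 0.0620 CPM in the same order. It rose in Y665F against WT (1.30) and fell in Y665H against Y665F (-1.69, edgeR adjusted p = 0.0259 and 0.00205), and was higher in WT males than in WT females (1.75, adjusted p = 0.0366). Il12rb2, its partner chain, was not called in any contrast, nor was Il2ra, the IL-2 receptor alpha chain, or Il15ra, the IL-15 receptor alpha chain. Both were named after their values were seen, and Il15ra had a log2 fold change of -0.97 in Y665F against WT females (edgeR adjusted p = 0.0619). Il21r, Il7r and Il9r also rose in Y665F against WT females, and Il21r, Il10ra, Osmr, Il9r, Il2rg and Csf2ra fell in Y665H against Y665F females. Csf2ra, the GM-CSF receptor alpha chain, fell also in Y665H against WT females (-0.83) and against Y665F males (-1.13), and Il10ra, the IL-10 receptor alpha chain, in Y665H against Y665F males (-0.79). The growth hormone receptor Ghr was at group means of 668.7 to 1340 CPM and was not called in any contrast. Il4ra, the IL-4 receptor alpha chain upstream of STAT6, and Lifr, the LIF receptor, were lower in WT males than in WT females (-1.19 and -0.58, adjusted p = 0.0464 and 0.0385) and were called in no other contrast.

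Of 16 inhibitors, Ptpn6, a tyrosine phosphatase of blood cells, rose in Y665F against WT females (log2 fold change 0.78, SE 0.13) and fell in Y665H against Y665F females (-1.03, SE 0.10), with edgeR adjusted p of 0.0221 and 0.00148. Socs4 and Pias1 fell in the latter by 0.34 and 0.28 on the log2 scale. Cish and Socs2, feedback inhibitors that STAT5 induces, were not called between genotypes. Cish was at 12.1 ± 3.47 CPM in WT, 7.47 ± 2.03 in Y665F and 15.1 ± 13.1 in Y665H females. Socs2 was at 24.5 ± 7.44, 38.6 ± 6.27 and 32.9 ± 4.58 CPM in the same groups and was lower in WT males than in WT females (-1.11, adjusted p = 0.0256), where Ptpn6 was higher (0.90, edgeR adjusted p = 0.0175).

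**Figure D5:**
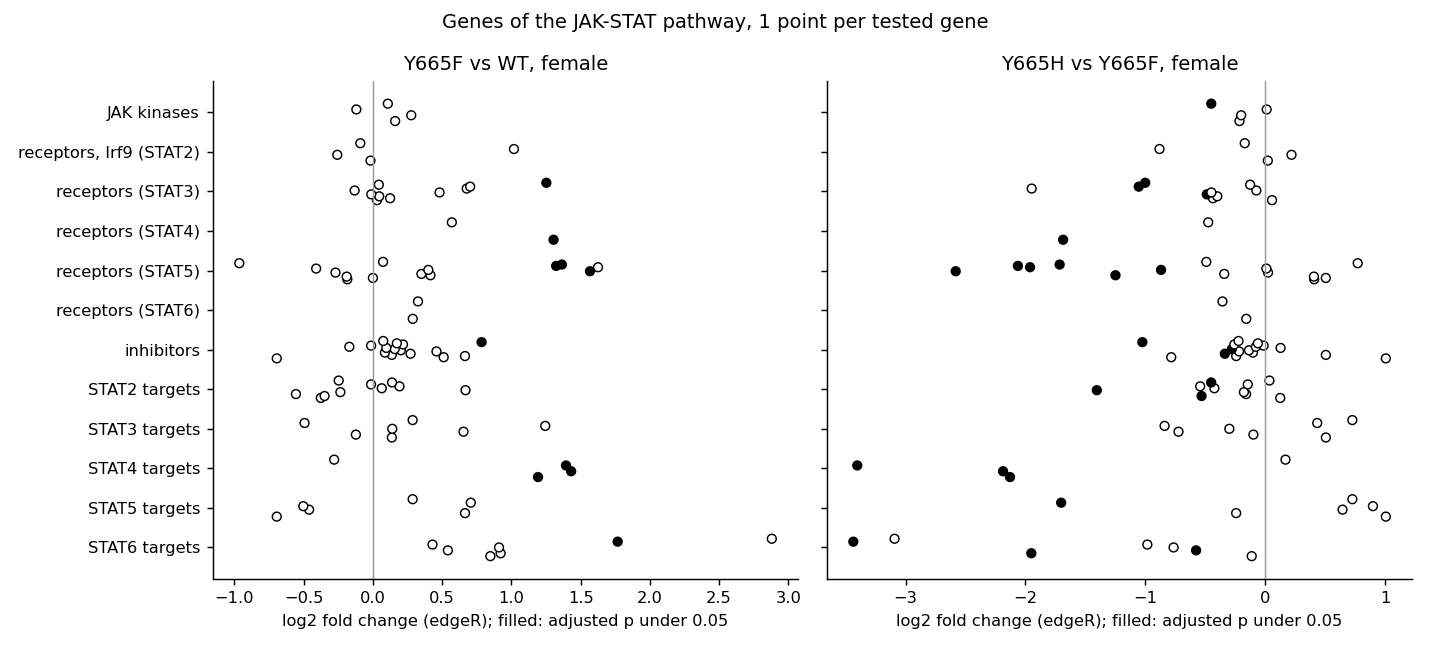
Log2 fold change of each tested pathway gene (points, 1 row per list) in Y665F against WT females (left) and Y665H against Y665F females (right), filled where the edgeR adjusted p is under 0.05. All 10 filled points on the left lie above 0 and all filled points on the right lie below 0, and both panels use the same Y665F female libraries.

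Of 4 STAT4 target genes tested, Tbx21, the transcription factor of type 1 lymphocytes, Il18rap, an IL-18 receptor chain, and Gzmb, the protease granzyme B, rose in Y665F against WT females (log2 fold changes 1.19, 1.43 and 1.39) and fell in Y665H against Y665F females (-2.13, -2.19 and -3.40). Tbx21 and Gzmb also fell in Y665H against Y665F males (-2.41 and -3.35), and Gzmb in Y665H against WT females (-2.01). Counts summed over the libraries of a group were 67 for Tbx21, 92 for Il18rap and 17 for Gzmb in Y665H females. In Y665F females they were 270, 385 and 171, so the Gzmb fold changes rest on few counts. All 3 are themselves lymphocyte genes. The remaining one, Furin, which encodes a protease of many tissues and is named after its values were seen, was not called and had the opposite signs in females, with log2 fold changes of -0.28 in Y665F against WT and 0.17 in Y665H against Y665F (edgeR adjusted p = 0.173 and 0.506). Of 7 tested STAT6 targets, the chemokine gene Ccl17 rose in Y665F against WT females (1.77), and Ccl17, Retnla and Mrc1, the latter 2 genes of alternatively activated macrophages, fell in Y665H against Y665F females (-3.44, -1.95 and -0.58). Ccl17 also rests on few counts, 21 summed over WT, 65 over Y665F and 6 over Y665H female libraries. Retnla was at 135.7 ± 8.55 CPM in WT, 255.8 ± 94.1 in Y665F and 66.6 ± 19.7 in Y665H females, and it fell also against WT (-1.03, edgeR adjusted p = 0.0248).

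Of 10 interferon-stimulated targets of STAT2, Mx1, Isg15 and Usp18 fell in Y665H against Y665F females (log2 fold changes -1.41, -0.53 and -0.45, edgeR adjusted p = 0.00465, 0.0377 and 0.0485). None was called in Y665H against Y665F males, where Stat2 was, but only 1.03% of all tested genes were called there, against 17.4% in females. In each of the 2 contrasts 8 of the 10 had values below 0, with a median of -0.30 in females and -0.35 in males. Ifit1 fell in Y665H against WT females (-0.71, adjusted p = 0.0468). In WT males against WT females 5 of the 10 were lower, with Ifi44, Oasl2, Ifit3 and Ifit1 at -1.46, -1.10, -1.33 and -1.12, while Stat2 was not called (log2 fold change -0.16, SE 0.15, edgeR adjusted p = 0.472). In the same contrast 11 of 12 skeletal muscle genes were called lower (median log2 fold change -5.29) and 4 of 10 epithelial genes higher (median 3.70), as were both epididymis genes tested, and all 10 adipocyte genes had values below 0 (median -0.78, none called). The part of these tissues was not tested. Irf9, the DNA-binding partner of STAT2, was at group means of 28.7 to 42.5 CPM and was not called in any contrast. Of 6 STAT5 targets, Osm, which encodes the cytokine oncostatin M, fell in Y665H against Y665F females (-1.70, edgeR adjusted p = 0.0139). Osm had few counts, 71 summed over the Y665F and 23 over the Y665H female libraries. In this contrast 4 of the 6 STAT5 targets had values above 0 (median of the 6 0.69), and 0 were called higher. Of 7 STAT3 targets none was called between genotypes, and Junb was higher in WT males than in WT females (0.94, adjusted p = 0.0194).

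The genes whose levels followed each member most closely were sought among 14786 genes at a mean of at least 1 CPM, by Pearson r of log2 levels over the 24 libraries. For Stat6 these were Glra1 (r 0.932), Tspan17 (0.929) and Syp (0.922), and for Stat5b Amotl2 (0.902), Grk6 (0.893) and 6530402F18Rik (0.889). Stat4 went with Limd2 (0.911), Dnaaf3 (0.903) and Fam78a (0.883), and r was 0.807, 0.870 and 0.733 for these without the 2 libraries farthest from the Stat4 median. Stat5a went with Uqcr11 (0.877), Nadk (0.870) and Rab34 (0.866). Stat2 and Stat3 had looser matches, Israa (0.842), Notch2 (0.805) and 4931406H21Rik (0.800) for Stat2, and Myl12a (0.765), Lrg1 (0.761) and Cfl1 (0.756) for Stat3. Over deviations from group means, which leave out the differences between groups, the closest gene was Kcnj11 for Stat2 (0.785), Tmem104 for Stat3 (0.901), Phyhipl for Stat4 (0.950, with a Spearman rho of 0.763), Map1lc3a for Stat5a (0.854), Amotl2 for Stat5b (0.929) and Ppp1r18 for Stat6 (0.944). Amotl2 thus led for Stat5b on both measures. With so many genes compared, a high r for the leading ones is part of the choice, and the libraries share scaling and composition.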

How the data were processed

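Per the labels' protocols, ribosomal RNA was removed and stranded paired-end libraries were sequenced. The submitters' processing notes name Trimmomatic 0.36, STAR, HTSeq 0.9.1 and the build mm10, without their settings. The authors deposited 1 file of raw read counts per gene symbol for each of the 24 libraries. The 5 entries that name no gene held 24.8 to 39.7% of all counts and were left out. In females they held 32.5 to 35.9% in Y665F, 27.9 to 30.3% in WT and 24.8 to 29.85% in Y665H libraries. Y665F females thus lay above both other female groups, whereas the male groups overlapped. The part of this share in the levels was not tested. Groups and replicate numbers came from the titles. Counts were tested as deposited with edgeR 4.0.16 (limma 3.58.1, R 4.3.3), using TMM scaling, filterByExpr, the quasi-likelihood F test and Benjamini-Hochberg adjustment over all genes tested, on the 8 libraries of each contrast or the 16 of each interaction. Scripts were tested on simulated data. No pair of replicates was alike within sampling noise. Alternatives were other scalings, no filter, DESeq2 1.42.0, 1 fit of all libraries, a replicate block and leaving out each library. The members, lists and tests were chosen with earlier results of these data known. Genes named beside the members were the 4 JAK kinases, Irf9, Il12rb2, Ghr, Il4ra, Cish, Socs2, Adipoq, Plin1, at most 4 called genes per list and contrast, and 3 genes most like each member, of which the first is given for deviations from group means. Promoters came from RefSeq (GRCm38.p6), with all 6 members matched, and codons and lengths from GENCODE M21.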

Additional observations from a re-analysis of the deposited data

Results flagged for a closer look

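The highest or lowest library of each group of 4 was set against Dixon's 95% critical value for the gap to the nearest other library over the range of the group, for 6 genes in 6 groups. Of 36 groups, 2 exceeded it, where chance gives about 1 in 20. Stat4 in WT male 4 was at 22.62 CPM against 1.22 to 1.31 in the other 3 WT males, a gap of 0.996 of the range, and this library held 1143 CPM of germ cell transcripts. Stat5b in Y665H male 2 was at 116.2 CPM against 96.7 to 99.5 in the other 3 libraries, a gap of 0.856 of the range. In the same library Stat6 was at 213 CPM, against 156 to 177 in the other 3 Y665H males.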

How the results depend on the processing

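Of 378 member results under alternatives other than leaving out a library, 354 kept their direction and their side of the threshold, 14 reversed, 6 gained and 4 lost a call. The causes were not tested. The fit of 23 libraries was chosen after seeing the data. Stat4 rests on few counts (15 to 78 per female library), and 3 counts correspond to 0.0726 to 0.143 CPM.

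Genes called are given in the order Y665F against WT males and females, Y665H against WT males and females, Y665H against Y665F males and females, WT males against WT females, and the sex differences of the Y665F and Y665H effects. They numbered 0, 521, 0, 516, 164, 2689, 2079, 0 and 2. DESeq2 gave 1129, 2047, 119, 1751 and 1085 for the first 5, 4483 for WT males against WT females and 1169 and 711 for the sex differences. The fit of all 24 libraries gave 2261 in Y665F against WT males, 203 and 250 in Y665H against WT, 400 in Y665H against Y665F males, 5987 in the WT contrast and 1 and 201 for the sex differences. The fit of 23 libraries without WT male 4 gave 1607, 270, 271, 489, 4846, 1 and 85 for the same. Library totals gave 1164 for Y665F against WT females and 72 for the sex difference of Y665H.

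Replicate numbers did not pair the libraries: same-numbered deviations correlated at -0.387 to 0.735, over 0.1 in 10 of 28 pairs and best with the own number in 6. With the replicate number as a block, 32 genes were called in Y665H against WT females, 0 in Y665H against Y665F males, 1583 in the females, 825 in WT males against WT females and 1 for the sex difference of Y665H. The block left 0 members called in Y665H against Y665F males, with Stat2 at -0.44 (edgeR adjusted p = 0.119), and turned Stat4 in Y665F against WT males to 0.27.

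The fit of all 24 libraries called 1 member in Y665F against WT males (Stat6, log2 fold change 0.50) and 1 in WT males against WT females (Stat4, 3.00, edgeR adjusted p = 0.00484), and 0 in Y665F against WT females. Stat4 stood there at 1.32 and, in Y665H against Y665F females, at -1.76. Stat5a in the latter contrast was called at 0.50 with 24 and with 23 libraries. Without WT male 4, the 23-library fit turned Stat4 to 1.08 in Y665F and 0.43 in Y665H against WT males and to 0.87 in the sex difference of Y665H. It put Stat5a at -0.0016 in Y665F against WT males. Library totals called 0 members in Y665H against Y665F males (Stat2 -0.38, edgeR adjusted p = 0.0820) and called Stat2 in the females (-0.41). They turned Stat5a to -0.018 in Y665F against WT males, Stat5b to -0.0026 in Y665H against WT females, and Stat2 to 0.015 and Stat5a to 0.021 in WT males against WT females. DESeq2 called 1 member for the sex difference of Y665H (Stat6, 0.63). Stat3, near 0, turned to -0.00084 with DESeq2 size factors and -0.0035 with DESeq2 in Y665F against WT females. In WT males against WT females it turned to -0.022 without a filter, -0.0048 with DESeq2 and -0.0091 with all 24 libraries.

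With each library left out in turn, genes called ranged from 0 to 570, 67 to 747, 0 to 1, 20 to 1269, 10 to 220, 1554 to 2839 and 251 to 5076 over the 7 contrasts, and from 0 to 1686 and 0 to 1844 for the sex differences. The highest counts of both sex differences and of the contrasts of WT males with Y665F males and with WT females came without WT male 1. Members called ranged from 0 to 1 in both Y665F against WT contrasts, in Y665H against Y665F males and for the sex difference of Y665H, and from 0 to 2 in WT males against WT females. Those 2 were Stat4 (edgeR adjusted p = 0.0447) and Stat6 (adjusted p = 0.0366), without WT male 1. Log2 fold changes in Y665F against WT males ranged from -1.70 to 1.11 for Stat4, -0.012 to 0.18 for Stat5a and 0.44 to 0.66 for Stat6. In Y665F against WT females they ranged from -0.027 to 0.14 for Stat2, -0.075 to 0.072 for Stat3, 1.15 to 1.49 for Stat4 and -0.022 to 0.14 for Stat5b. In Y665H against WT they ranged from -2.31 to 0.43 for Stat4 and -0.093 to 0.066 for Stat5a in males and from -0.043 to 0.050 for Stat5b in females. In Y665H against Y665F they ranged from -0.47 to -0.40 for Stat2 in males and from -0.12 to 0.039 for Stat5b in females. In WT males against WT females they ranged from -0.089 to 0.055 for Stat3, 0.61 to 3.40 for Stat4 and -0.37 to -0.14 for Stat6. The sex difference of Y665H ranged from -0.0031 to 0.19 for Stat2, -1.85 to 0.88 for Stat4 and 0.54 to 0.82 for Stat6.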
